A study of Mus musculus with 4 samples.

Results

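The S phase and DNA replication machinery was followed here as 43 genes, chosen by symbol and covering origin licensing, the replicative helicase, its activation, the DNA polymerases, the clamp and its loader, single-strand DNA binding, the activating E2F factors and chromatin assembly behind the fork. A gene entered through a probe set whose annotation named it alone, and where several did so the one with the highest mean over all arrays was used. In this way 42 of the 43 genes were measured, of 18193 genes measured in all, and Chaf1a was not analysed here. Expression was recorded on 4 Affymetrix arrays from T29, a mouse thymic lymphoma line that the series' design text describes as Ikaros-deficient. Every sample, controls included, had been transduced with MigR1-MLER, which per the design text encodes a dominant-negative Mastermind protein that can be induced. The 4OHT group (2 samples) received 100 nM 4OHT, the tamoxifen metabolite that activates oestrogen receptor fusions, for 24 h, and the ethanol group (2 samples) received ethanol for 24 h. T29 is 1 line, and no cells without the construct were analysed here, so the effects of 4OHT itself and of the induced protein cannot be told apart. The labels do not say whether replicates were separate cultures, so the p-values reflect only how far these arrays differ, a spread that may be technical.

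Mastermind is the co-activator that Notch and its DNA-binding partner RBPJ need to switch on their targets, and its dominant-negative form blocks that step. In G1, the origin recognition complex with Cdc6 and Cdt1 loads the ring of MCM proteins onto origins. In S phase, the kinase of Cdc7 and Dbf4 together with cyclin-dependent kinases turns that ring into the active helicase with Cdc45 and GINS, and the polymerases follow. Most of these genes are transcribed under E2F control as cells pass from G1 into S phase, and dividing thymocytes and T-cell leukaemia cells are known for high levels of them.

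Values are log2 expression values made by RMA, and a change is the mean of the 4OHT arrays minus the mean of the ethanol arrays. Differences were tested with limma over 11581 genes, and a gene was called at a Benjamini-Hochberg adjusted p under 0.05. Over all genes 452 were called higher and 413 lower. Dtx1 and Hes1, standard readouts of Notch activity in T cells, fell by 3.41 and 1.39 on the log2 scale (limma adjusted p = 0.000506 and 0.00945). Of 11 measured T-lineage markers 9 lay at or above the testing floor of 4.81, while Cd2 and Cd5 were below it. Cd8a, Cd247 and Ptprc were called higher with 4OHT, by 0.83, 0.68 and 0.60, and Cd3g lower, at -0.57. The summed T-lineage level was 107.3 and 108.9 on the 4OHT arrays, against 105.0 and 106.2 on the ethanol arrays. The floor was reached by 2 of 6 B-lineage, 3 of 7 myeloid and 2 of 4 erythroid markers, the highest value among them being 6.37. Of 8 stromal, epithelial and endothelial markers 3 reached it, the highest being Pecam1, which was called higher with 4OHT. The summed levels of these other-cell lists ranged over 18.2 to 39.8 on the 4OHT arrays and 18.5 to 38.9 on the ethanol arrays. The 3' minus 5' difference of the 18S ribosomal RNA control was 0.90 and 0.82 on the 4OHT arrays, against 0.05 and 0.32 on the ethanol arrays. That of Actb was 0.43 and 0.45 on the 4OHT arrays and 0.40 and 0.49 on the ethanol arrays. The part of these markers and measures in the results below was not tested.

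Replication genes as a group lay slightly lower with 4OHT, and 1 of them passed the test. All 42 measured genes were above the testing floor, the dimmest at a mean of 8.23 with 4OHT and 8.29 with ethanol (Gins3). Pold2, which encodes the accessory subunit of DNA polymerase delta, fell, and the other 41 did not pass. Across all tested genes 3.57% were called lower and 3.9% higher, so 1 lower and 0 higher of 42 is a share near the background in the first direction. Changes ran from -0.48 to 0.42, and no member reached a change of 0.5 in either direction, which 8.76% of all genes did.

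The direction was less evenly divided than the calls. Of the 42 genes 36 had a change below 0, against 52.3% of all tested genes. That count was 32 with quantile normalization, 38 with median centring and 31 without 4OHT replicate 1. The share of all genes below 0 was 53.9%, 56.5% and 51.1% in these fits. The 42 genes were read on the same 4 arrays and can move together, so they are not independent observations of the treatment. Their median change was -0.10, beside -0.01 for all genes tested, and the middle of their range lay between -0.21 and -0.02, beside -0.16 and 0.14 for all genes. Both 4OHT arrays lay below both ethanol arrays for 24 genes, where 30.2% of all tested genes did so, and above both for 3 genes (Cdc7, Prim1 and E2f2), where 26.7% did. The median of the 42 gene-centred values was -0.05 and -0.05 on the 4OHT arrays and 0.08 and 0.06 on the ethanol arrays. At a looser adjusted p under 0.10, 3 were lower and 1 higher, where all genes gave 7.12% and 7.37%. Without a multiple-testing correction, 9 were lower and 1 higher at p under 0.05 in limma, where all genes gave 13.2% and 12.3%. In a bulk culture, fewer cells in S phase and less of these RNAs per cell cannot be told apart.

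The sizes involved were small against the precision of 2 arrays a group. The change was larger than both replicate differences for 20 of the 42 genes, a share close to the 44.6% among all genes. The 95% interval of the change lay within 1.5-fold in either direction for 38 of them (90.5%), beside 75.3% of all genes tested. The 4 whose interval reached beyond that bound were Pold2, Pold1, Prim2 and E2f2.

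**Figure D1:**
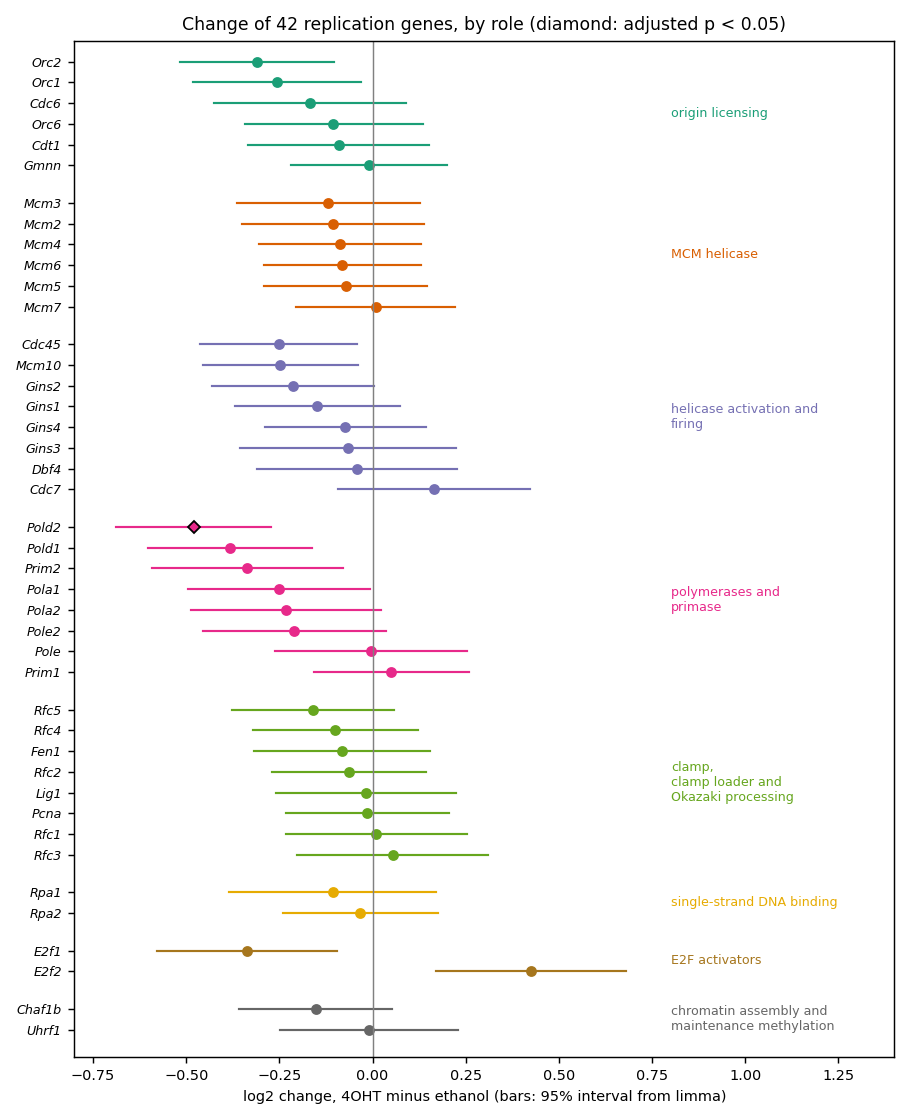
Change of the 42 measured replication genes, grouped by role. The horizontal axis is the log2 change, 4OHT minus ethanol, points are the estimates, bars the 95% intervals from limma, and the diamond marks the gene called at an adjusted p under 0.05. Most points lie left of 0, with Pold2 at -0.48 the lowest and E2f2 at 0.42 the highest.

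**Figure D2:**
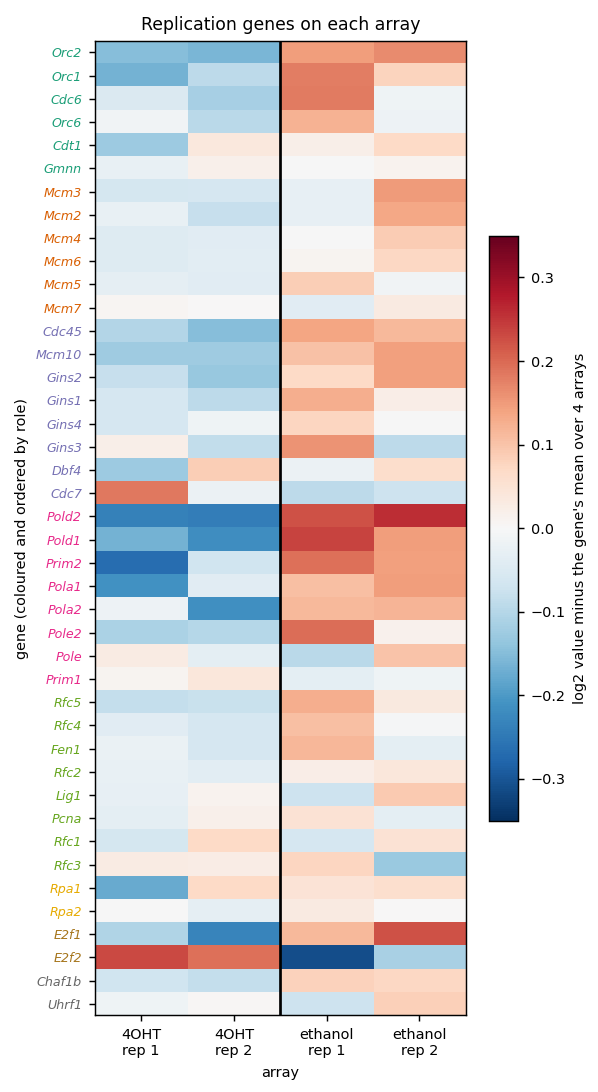
Each replication gene on each array, as its log2 value minus its own mean over the 4 arrays, with the 4OHT arrays left of the line and the ethanol arrays right of it. Blue prevails on the 4OHT side and red on the ethanol side, most clearly among the polymerase genes, and E2f2 runs the other way.

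Origin licensing genes all had a change below 0 and none was called. Orc2, a core subunit of the origin recognition complex, stood at 9.36 and 9.35 on the 4OHT arrays and at 9.65 and 9.67 on the ethanol arrays. The replicates of each group were close together and the groups did not overlap, with a change of -0.31 ± 0.08 SE (limma adjusted p = 0.0865). Its other probe sets gave -0.32 and -0.28. The dimmer of these, at -0.28, read 7.785 and 7.770 with 4OHT and 8.351 and 7.773 with ethanol. Its groups overlapped, and its change came from ethanol replicate 1. Orc1, the ATPase subunit whose level follows E2F activity in the cell cycle, was at 8.27 and 8.34 with 4OHT and 8.61 and 8.51 with ethanol, again without overlap (adjusted p = 0.154). A dimmer second probe set of Orc1 gave -0.02, with overlapping groups.

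The 2 loading factors differed little between the groups. Cdc6, the ATPase that joins the origin recognition complex to load the helicase, was at 10.86 and 10.80 with 4OHT, against 11.09 and 10.90 with ethanol. The spread of its ethanol arrays was larger than its change of -0.17 (adjusted p = 0.365). Cdt1, which brings the MCM ring to the origin, was at 12.15 and 12.31 with 4OHT and 12.30 and 12.35 with ethanol, and the groups overlapped. Gmnn, the geminin gene whose product holds Cdt1 inactive after origins have fired, had a change of -0.01 with a 95% interval from -0.22 to 0.20. Orc6, the smallest subunit, had a change of -0.10 and overlapping groups.

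The MCM ring showed changes that lay close together. The genes of its 6 proteins, which together form the helicase motor, had changes from -0.12 to 0.01 and none was called. Mcm3 was at 11.95 and 11.95 on the 4OHT arrays and at 11.98 and 12.16 on the ethanol arrays. Mcm7 was at 13.36 and 13.36 on the 4OHT arrays, between its ethanol values of 13.31 and 13.39. The 4OHT replicates of this group were nearly identical, with a median difference between them of 0.006, while the ethanol replicates differed by a median of 0.095. For Mcm3, Mcm4, Mcm5 and Mcm6 the groups did not overlap, but Mcm6 was the only one of the 6 whose change, -0.08, exceeded both replicate differences. The second brightest probe sets of Mcm4 (change 0.046) and Mcm6 (-0.067) gave overlapping groups. Those of Mcm3 (-0.169) and Mcm5 (-0.155) did not. The lower ends of the intervals lay between -0.37 (Mcm3) and -0.21 (Mcm7).

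Bases upstream of the start were searched for the letters that E2F factors prefer. The genes were chosen by symbol, not by these letters. Most of them are transcribed under E2F control, so a share above that of all promoters was likely from the choice alone. The words TTTCCCGC, TTTCGCGC, TTTGCCGC and TTTGGCGC were looked for on both strands in the 250 bases before each start in RefSeq's promoter table for GRCm38.p6, which held 35 of the 43 genes. At least 1 such word was found for 9 of the 35 genes (Cdc6, Gins3, Mcm5, Mcm6, Mcm7, Orc1, Pola1, Rfc3 and Uhrf1). Counted over promoters, 20.5% of 44 held one, beside 1.86% of all 32851 promoters in the table. The promoters compared were not matched for base composition. Of 2 comparison lists described further below, MYC-driven growth and ribosome biogenesis had one in 13.6% of 22 promoters. G2 and mitosis genes had one in 5.26% of 19. Those of Mcm6, Mcm5, Cdc6 and Orc1, and that of Pold2, follow 5' to 3' on the gene's strand, with E2F words in capitals. They are shown because Mcm6 and Mcm5 held the most words, Cdc6 and Orc1 are licensing genes with 1 word each, and Pold2 is the gene that fell.
Mcm6 (chr1:128359706-128359955, minus strand): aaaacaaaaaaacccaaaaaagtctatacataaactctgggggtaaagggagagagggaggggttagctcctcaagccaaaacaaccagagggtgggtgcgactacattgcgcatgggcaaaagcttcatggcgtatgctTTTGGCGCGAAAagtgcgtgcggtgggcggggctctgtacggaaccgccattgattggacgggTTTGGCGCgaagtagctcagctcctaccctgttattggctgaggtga
Mcm5 (chr8:75109259-75109508, plus strand): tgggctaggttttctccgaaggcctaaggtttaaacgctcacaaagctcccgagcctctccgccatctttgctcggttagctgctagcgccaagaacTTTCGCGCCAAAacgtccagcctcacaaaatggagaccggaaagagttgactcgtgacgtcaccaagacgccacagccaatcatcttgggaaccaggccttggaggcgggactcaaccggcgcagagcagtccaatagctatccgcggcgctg
Cdc6 (chr11:98907901-98908150, plus strand): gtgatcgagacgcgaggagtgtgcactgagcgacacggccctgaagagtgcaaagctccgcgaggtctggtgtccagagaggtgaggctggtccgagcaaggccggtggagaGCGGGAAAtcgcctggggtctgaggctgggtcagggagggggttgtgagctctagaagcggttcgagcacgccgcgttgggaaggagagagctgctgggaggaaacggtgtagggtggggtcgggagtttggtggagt
Orc1 (chr4:108579204-108579453, plus strand): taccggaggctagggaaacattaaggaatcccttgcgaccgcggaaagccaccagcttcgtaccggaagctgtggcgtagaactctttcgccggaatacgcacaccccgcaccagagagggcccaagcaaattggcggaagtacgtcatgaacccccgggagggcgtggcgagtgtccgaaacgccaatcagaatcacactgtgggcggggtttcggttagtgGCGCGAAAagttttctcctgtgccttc
Pold2 (chr11:5878257-5878506, minus strand): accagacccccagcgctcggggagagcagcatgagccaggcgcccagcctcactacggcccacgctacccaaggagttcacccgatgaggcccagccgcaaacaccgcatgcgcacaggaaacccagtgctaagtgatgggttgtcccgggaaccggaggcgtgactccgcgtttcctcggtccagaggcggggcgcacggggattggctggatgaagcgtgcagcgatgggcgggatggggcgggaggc
In Mcm6 the words covered bases 110 to 99 before the start, where 1 on each strand overlapped, and again bases 47 to 40. In Mcm5 a like pair overlapped at bases 153 to 142. The Pold2 window held none of these words, and neither the MYC E-box CACGTG nor TGGGAA, the core letters bound by RBPJ. The window before a second annotated Pold2 start held TGGGAA once.

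The measured genes with an E2F word had a median change of -0.07 (7 of 9 below 0), and those with a promoter in the table and no word had one of -0.11 (21 of 25 below 0). Changes ran from -0.26 to 0.05 among the genes with a word, and over the wider range of -0.48 to 0.42 among those without. CACGTG was present in 11.4% of the replication promoters and 6.02% of all promoters, and TGGGAA in 34.1% and 21.6%. In the growth and ribosome biogenesis list CACGTG was in 4.55% of promoters and TGGGAA in 31.8%. The G2 and mitosis list had them in 5.26% and 21.1%. TGGGAA shares its run GGGAA with the complement of TTTCCCGC, but neither word contains the other. These matches describe letters in a window and say nothing of binding.

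Among the genes that activate the helicase, 7 of 8 had a change below 0 and none was called. Cdc45, which joins the MCM ring to make it an active helicase, was at 9.69 and 9.65 with 4OHT, against 9.94 and 9.91 with ethanol. Its change was -0.25 ± 0.08 SE (limma adjusted p = 0.136), beyond both replicate differences. A much dimmer second probe set of Cdc45 gave 0.12, with 7.26 and 6.48 on the 4OHT arrays. Mcm10, which helps start unwinding, was at 9.80 and 9.80 with 4OHT and 10.03 and 10.07 with ethanol (change -0.25, adjusted p = 0.139), while its 2 dimmer probe sets gave 0.02 and 0.06.

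The 4 GINS subunits, which hold Cdc45 to the ring, had changes of -0.15 (Gins1), -0.21 (Gins2), -0.07 (Gins3) and -0.07 (Gins4). The groups stood apart downward for all but Gins3, where 30.2% of all tested genes stood apart in that direction. For Gins4 the change of -0.073 was no larger than the difference of 0.075 between its ethanol arrays. Cdc7, the kinase that fires origins, was at 10.08 and 9.87 with 4OHT and 9.80 and 9.82 with ethanol. It was 1 of the 3 genes whose groups stood apart in the upward direction, although its 4OHT replicates differed by 0.20, more than the change of 0.16 (adjusted p = 0.372); a second probe set gave 0.15. Its activating partner Dbf4 was at 10.92 and 11.14 with 4OHT and 11.03 and 11.12 with ethanol, with overlapping groups.

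The polymerase genes had the lowest median change of the 8 roles. Of the 8 genes for polymerases and primase 7 had a change below 0, and the median change was -0.24. For 6 the 4OHT arrays lay wholly below the ethanol arrays, where 30.2% of all tested genes did so. Pold2 was at 10.70 and 10.70 on the 4OHT arrays and at 11.16 and 11.20 on the ethanol arrays. The replicates were within 0.04 of each other and the groups lay far apart by comparison. Pold2 averaged 10.70 ± 0.01 with 4OHT and 11.18 ± 0.03 with ethanol (SD, n = 2 each), and fell by 0.48 on the log2 scale (SE 0.08, limma adjusted p = 0.0331). It was the 546th gene of 11581 by p-value. The gene had 1 probe set, and its call was lost when any 1 array was left out (adjusted p from 0.113 to 0.153), with changes from -0.50 to -0.46 in those fits.

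Pold1, the catalytic subunit of the same polymerase, lay in the same direction. It was at 10.82 and 10.77 with 4OHT, against 11.22 and 11.13 with ethanol, without overlap. The change was -0.38 ± 0.09 SE (limma adjusted p = 0.0626), and its second probe set gave -0.24. Pold1 was called with a stricter filter on dim genes (adjusted p = 0.0414) and with an intensity trend in the variance (adjusted p = 0.0198). It was not called without _x_at, _s_at and _a_at probe sets (limma adjusted p = 0.236) or with averaged probe sets (adjusted p = 0.0836). With 1 array left out its change ran from -0.428 to -0.338.

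None of the primase and polymerase alpha genes, which lay down the RNA-DNA primers, was called, and all but Prim1 had a change below 0. Prim2, the large primase subunit, was at 9.68 and 9.88 with 4OHT and 10.14 and 10.09 with ethanol (change -0.34 ± 0.10 SE, adjusted p = 0.115). A second bright probe set gave -0.40 and a dim one 0.01. Prim1, the catalytic primase subunit, was at 11.47 and 11.50 with 4OHT and 11.43 and 11.45 with ethanol, a small difference with the groups just apart in the upward direction (change 0.05, adjusted p = 0.745). Pola1, the catalytic subunit of polymerase alpha, had a change of -0.25 (adjusted p = 0.187) and its partner Pola2 one of -0.23 (adjusted p = 0.227). The 4OHT arrays of these last genes were further apart than their ethanol arrays, by 0.17 for Pola1 and 0.20 for Pola2.

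Polymerase epsilon copies the leading strand. Its catalytic subunit gene Pole was at 9.69 and 9.63 with 4OHT, inside the ethanol values of 9.57 and 9.76, with a change of -0.005. Its second subunit gene Pole2 had a change of -0.21 with groups apart (adjusted p = 0.251).

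**Figure D3:**
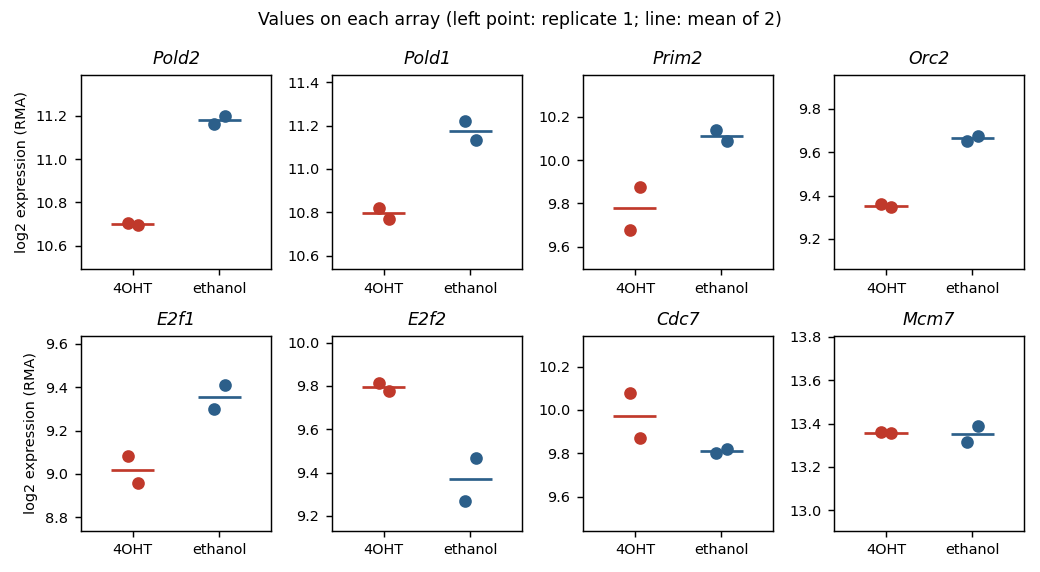
Log2 expression on each array for 8 replication genes, 4OHT left and ethanol right in each panel, with a line at the mean of 2 arrays and all panels spanning the same log2 range. Pold2, Pold1, Prim2, Orc2 and E2f1 are lower on both 4OHT arrays, E2f2 and Cdc7 are higher, and Mcm7 overlaps.

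The clamp, its loader and the genes of Okazaki fragment processing had a median change of -0.04, and none of 8 was called. Pcna, the sliding clamp, was at 13.60 and 13.65 with 4OHT and 13.68 and 13.60 with ethanol, with overlapping groups and a 95% interval from -0.23 to 0.20. Fen1, the flap nuclease (change -0.08), and Lig1, the ligase that seals the fragments (change -0.02), overlapped as well.

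The 5 subunits of the clamp loader ranged from -0.16 to 0.05. Rfc5 was at 10.52 and 10.53 with 4OHT, against 10.73 and 10.64 with ethanol (adjusted p = 0.316). Rfc3 was at 10.27 and 10.27 with 4OHT, within its ethanol values of 10.32 and 10.11. Rfc1, the large subunit, was at 10.04 and 10.17 with 4OHT and 10.04 and 10.15 with ethanol. A second Rfc1 probe set of like brightness gave -0.17 where the first gave 0.01. Rfc2 and Rfc4 had changes of -0.06 and -0.10 with groups apart.

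The single-strand binding protein and the chromatin genes were also close between groups. Rpa1, the large subunit of the protein that coats single-stranded DNA, was at 11.72 and 11.97 with 4OHT and 11.95 and 11.96 with ethanol. Its 4OHT replicate 1 array was low and replicate 2 matched the ethanol arrays. Rpa2 had a change of -0.03. Chaf1b, a subunit of the histone chaperone CAF-1, was at 9.76 and 9.74 with 4OHT and 9.91 and 9.90 with ethanol, apart by 0.15 with closely matched replicates (adjusted p = 0.311). Uhrf1, which brings the maintenance methyltransferase to new DNA, was at 12.14 and 12.16 with 4OHT, between its ethanol values of 12.08 and 12.24.

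The activating E2F genes lay in opposite directions. E2f1 was at 9.08 and 8.96 with 4OHT and at 9.30 and 9.41 with ethanol, and E2f2 at 9.81 and 9.78 with 4OHT and at 9.27 and 9.47 with ethanol. Neither pair of groups overlapped, and neither gene was called. E2f1 had a change of -0.34 ± 0.10 SE (limma adjusted p = 0.101), but a second probe set of nearly the same brightness gave -0.07, with 8.99 and 8.99 on the 4OHT arrays and 8.99 and 9.13 on the ethanol arrays. E2f2 had a change of 0.42 ± 0.10 SE (adjusted p = 0.0687) and its second probe set gave 0.39, with 8.89 and 8.71 on the 4OHT arrays and 8.34 and 8.48 on the ethanol arrays. E2f2 was called with the stricter filter (adjusted p = 0.0482) and with an intensity trend (adjusted p = 0.0396). It was not called with no filter (limma adjusted p = 0.0937) or with averaged probe sets (adjusted p = 0.0697). With 1 array left out its change ran from 0.327 to 0.523.

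Most genes had more than 1 probe set, which gave a further reading of the same arrays. Above the testing floor there were 42 further probe sets for 30 of the genes, and 32 had the same direction as the brightest. Of the 34 that were above the 60th percentile of brightness 28 did so. The median absolute difference from the brightest was 0.06, beside a median absolute change of 0.105 over the 42 genes. These probe sets share their RNA with the brightest ones and are not replicates.

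**Figure D4:**
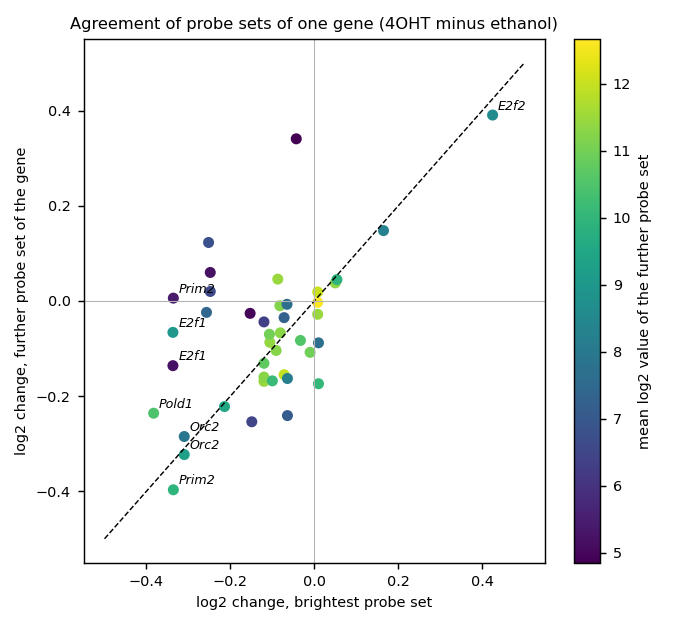
Log2 change (4OHT minus ethanol) of each further probe set above the testing floor against that of the brightest probe set of the same gene, coloured by brightness, with the dashed line marking equality. Both bright E2f2 probe sets lie near 0.4 and the Orc2 probe sets near -0.3, while those of E2f1 and the dim ones of Prim2 depart from the line.

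Genes of the same pathway that are not among the 43 were read from 7 further lists, of which 92 of 95 genes were tested. Of these 3 were called higher, 1 lower and 88 did not pass, a share near the 7.47% of all genes called in either direction. Their median change was -0.04 and 50 of the 92 had a change below 0, where 52.3% of all tested genes did. Groups stood apart downward for 37 and upward for 24, where 30.2% and 26.7% of all tested genes did.

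The called genes were E2F and G1 regulators and a nucleotide enzyme, not parts of the fork. E2f7, an E2F that represses rather than activates S phase genes, was at 7.14 and 7.17 with 4OHT and 6.36 and 6.30 with ethanol. It rose by 0.83 ± 0.09 SE on the log2 scale (limma adjusted p = 0.0123), well beyond the spread of either pair. Cdkn2d, an INK4 inhibitor of the cyclin D kinases, was at 10.15 and 10.07 with 4OHT and 9.63 and 9.49 with ethanol, and rose by 0.55 ± 0.10 SE (adjusted p = 0.0346). Cdk2, the kinase that drives S phase with cyclins E and A, was at 10.48 and 10.48 with 4OHT and 10.06 and 10.09 with ethanol, and rose by 0.40 ± 0.08 SE (adjusted p = 0.049). The Cdk2 call did not hold with median centring (adjusted p = 0.0567), with no filter (adjusted p = 0.0709) or with the mean of its probe sets (adjusted p = 0.187). Dctpp1, which clears non-standard deoxynucleotides, was at 10.64 and 10.51 with 4OHT and 11.01 and 11.16 with ethanol. It fell by 0.51 on the log2 scale (SE 0.10, adjusted p = 0.0456), a call lost with quantile normalization (adjusted p = 0.052), with no filter (adjusted p = 0.0574) and without _x_at, _s_at and _a_at probe sets (adjusted p = 0.0549). None of these 4 calls held when any 1 array was left out, at adjusted p from 0.0513 to 0.186.

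Genes of these lists that did not pass are given by value. In the E2F and pocket protein list, Rbl2, which encodes the repressor p130, had a change of 0.63 (limma adjusted p = 0.0659), Rb1 one of 0.33 and the repressor gene E2f8 one of 0.21. E2f6, another repressor, had a change of -0.42 (adjusted p = 0.0807). Among G1/S genes, the INK4 inhibitor gene Cdkn2c had a change of 0.42 (adjusted p = 0.0633) and Ccnd3, cyclin D3, one of -0.41 (adjusted p = 0.0823). The cyclin genes Ccne1 and Ccna2 had changes of -0.01 and -0.07.

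Among the other origin and fork factors none of 20 was called, with Mtbp, a partner of the firing factor Ticrr, at -0.37 (adjusted p = 0.0613) and the helicase gene Recql4 at -0.23. None of 18 further polymerase, loader and processing genes was called, Rnaseh2a (ribonuclease H2) standing at -0.25 and Top2b (topoisomerase II beta) at 0.24. Of the 8 nucleotide genes, Rrm2, the S phase subunit of ribonucleotide reductase, had a change of 0.30 (adjusted p = 0.116). None of 10 histone and methylation genes was called, among them Asf1a at -0.21 and Dnmt1 at 0.21. None of 11 checkpoint genes was called either, with Rad1, of the checkpoint clamp, at -0.40 (adjusted p = 0.0642) and the kinase gene Chek1 at -0.32.

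A pair of lists from neighbouring processes was set beside the replication genes, with no test between lists. Both were chosen with earlier results of these data known. Of 21 G2 and mitosis genes none was called, 18 had a change above 0, and the median was 0.12. Groups stood apart upward for 12 and downward for none, beside 26.7% and 30.2% of all tested genes. Ccnb2, a mitotic cyclin, had a change of 0.40 and the proliferation marker Mki67 one of 0.32. Of 26 genes of MYC-driven growth and ribosome biogenesis 20 were called lower, where 3.57% of all tested genes were. All had a change below 0 and the median was -0.56. The largest falls were those of Srm, spermidine synthase (-1.04), and Nop58, a box C/D snoRNP protein (-0.85). The replication genes, at -0.10 with 1 call of 42, lay between these values. Myc itself fell by 0.74 on the log2 scale (limma adjusted p = 0.0358), and whether this bears on any of the lists was not tested.

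**Figure D5:**
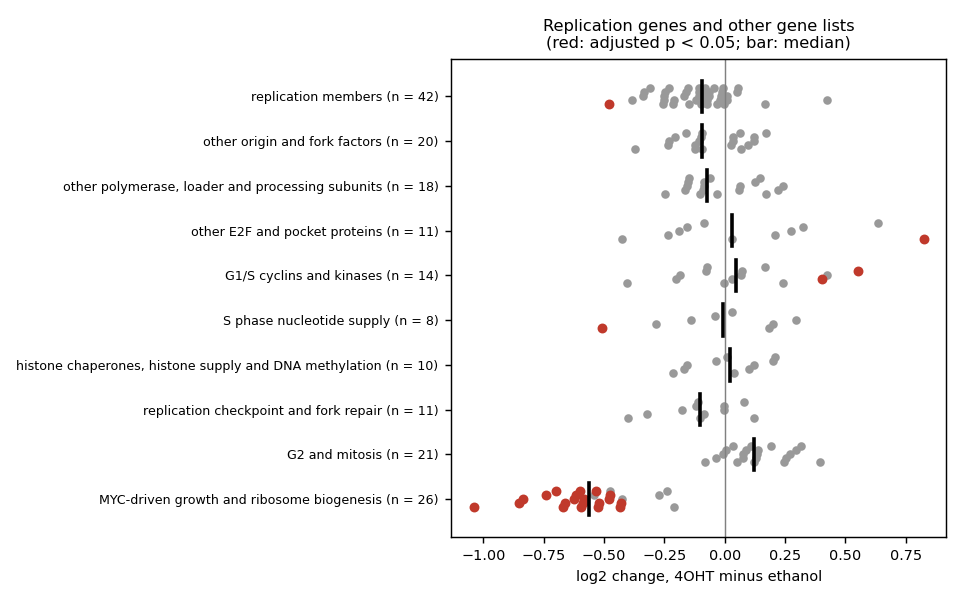
Log2 change, 4OHT minus ethanol, of each tested gene in the replication list, 7 further pathway lists and 2 lists of neighbouring processes. Red points were called at an adjusted p under 0.05 and bars are medians, at -0.10 for the replication genes, 0.12 for G2 and mitosis and -0.56 for MYC-driven growth.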

How the data were processed

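The deposited values are RMA expression per probe set, as named in the submitters' processing notes, and were read as log2 because they span 2.25 to 14.6 with array medians of 5.12 to 5.14. No version of RMA was stated, and RMA yields no detection call. The deposited table held 45101 probe sets; GEO's platform annotation named 1 gene for 34945 and several for 932, and 9211 were unnamed here. No symbol changed when checked by gene number, and 204 had no match. Each gene took its brightest probe set, and genes under the 40th percentile (4.81) were not tested, leaving 11581.

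Testing used lmFit and eBayes of limma 3.58.1 (R 4.3.3) on all 4 arrays without a block. An exact permutation test of 2 arrays against 2 cannot go below p = 0.333, so none was used. The number of arrays limits the precision. On simulated data of 11581 genes, of which 200 were changed, the fit recovered 7.61% of changes of 0.5. It recovered 83% of changes of 1 and 99.2% of changes of 2. In the data 865 genes were called, more than were changed in the simulation. The adjustment was therefore less strict in the data, and the simulated shares can understate what the fit recovers there. The simulated spread was also drawn from that of all genes. Replicates of the replication genes lay closer, with median differences of 0.043 (4OHT) and 0.087 (ethanol), beside 0.11 and 0.111 over all genes. The simulated shares therefore do not carry over directly to these genes.

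The 43 genes, the further lists and the tests were chosen with earlier results of these data known. Values on every array are given for called replication genes, the 5 largest rises and falls, and the largest change and highest mean in each role. Called genes and the 2 largest changes were to be named in each other list, together with Dtx1, Hes1 and Myc. Further genes (among them Orc1, Cdc6, Mcm10, Pole, Rb1, E2f8, Ccnd3, Ccne1 and Ccna2) were named after their values were seen. In the list of MYC-driven growth, called genes are given as a count. Alternatives are given in the closing section.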

Additional observations from a re-analysis of the deposited data

How the results depend on the processing

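The median change of the replication genes stayed below 0 in every fit run. It was -0.077 with quantile normalization, -0.118 with median centring and -0.088 when probe sets of a gene were averaged, and ran from -0.116 to -0.093 when 1 array was left out. Pold2 kept its call in every alternative that used all 4 arrays and lost it in each fit without 1 array, where 0 replication genes were called. A fit without 1 array has 1 residual degree of freedom and takes the lone array to vary like the other group. The replication genes gave 2 lower and 1 higher (Pold2, Pold1 and E2f2) with a filter at the 60th percentile, with an intensity trend and with a trend and robust prior, and 3 lower and 1 higher at an adjusted p under 0.10, where 7.12% and 7.37% of all genes passed. The other pathway genes called, 4 in all, numbered 2 with no filter, 7 with the stricter filter, 2 without _x_at, _s_at and _a_at probe sets, 10 with a trend, 12 with a trend and robust prior, 10 at an adjusted p under 0.10 and 0 without any 1 array. Over all genes, 853 were higher and 824 lower at an adjusted p under 0.10. The stricter filter gave 500 higher and 508 lower of 8356 tested, and a trend 663 higher and 636 lower of 11581. A trend and robust prior gave 679 higher and 666 lower, and 269 were lower without the suffixed probe sets. With the stricter filter and both trend fits, the share of replication genes called was below that of all genes in each direction. Leaving out 1 array gave 9 to 125 higher and 12 to 66 lower.

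With the replicate number as a block, 1104 genes were higher and 1031 lower, with 2 replication genes lower, 1 higher, and 10 of the other pathway genes called. Same-numbered arrays deviated together (correlation 0.343), but with 2 pairs the samples share only a number, and the cause was not tested.

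Changes of single genes were followed across the fits for the 20 replication genes picked by the rule given above. Orc1, Cdc6, Mcm10 and Pole, also given on every array, were named later and not followed in this way. Of the 20, the following changed sign without passing any test. With averaged probe sets, Dbf4 was at 0.149, Mcm7 at -0.001 and Rfc1 at -0.084. With median centring, Mcm7 was at -0.014 and Rfc1 at -0.012, and with quantile normalization Uhrf1 was at 0.016. Leaving out 1 array gave -0.150 to 0.064 for Dbf4, -0.028 to 0.044 for Mcm7, -0.057 to 0.028 for Pcna, -0.056 to 0.076 for Rfc1, -0.049 to 0.156 for Rfc3, -0.230 to 0.017 for Rpa1 and -0.089 to 0.069 for Uhrf1. Other genes kept their sign but moved by over 1.5 times. Without 4OHT replicate 1, Cdc7 went from 0.165 to 0.062 and Cdt1 from -0.091 to -0.008. Mcm3 went from -0.120 to -0.031 without ethanol replicate 2. With averaged probe sets, Cdc45 went from -0.252 to -0.065, E2f1 from -0.337 to -0.180 and Chaf1b from -0.153 to -0.089. Without _x_at, _s_at and _a_at probe sets, E2f1 was at -0.066, and Pold1 went from -0.383 to -0.236. Median centring took Prim1 from 0.050 to 0.028. The causes were not tested. RMA gives no signal over background, so what dimness limits cannot be stated for single genes.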

Other observations

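The 2 ethanol arrays differed from each other among the replication genes by amounts like the treatment differences. Ethanol replicate 1 was higher than replicate 2 by 0.25 for Gins3, 0.20 for Rfc3, 0.19 for Cdc6, 0.18 for Pole2 and 0.15 for Fen1. It was lower by 0.18 for Mcm3, 0.16 for Mcm2, 0.16 for Lig1, 0.16 for Uhrf1, 0.20 for Pole and 0.20 for E2f2. Over the 42 genes the median absolute difference was 0.043 between the 4OHT arrays and 0.087 between the ethanol arrays, beside 0.11 and 0.111 over all genes tested. These genes were named after their values were seen.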
